A study of Homo sapiens with 3 samples.

Results

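The RNA of the interleukin 6 (IL6) and leukemia inhibitory factor (LIF) pathway was described in DU145, an androgen-independent cell line from a human prostate cancer. The pathway was taken as 9 genes matched by name in the count files, of 58735 genes listed. They were the ligands IL6 and LIF, the receptors IL6R, IL6ST, LIFR and OSMR, the transcription factor STAT3, and its targets SOCS3 and PIM1. All 9 had enough counts to be tested.

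The study compared 1 control library of DU145 cells with 2 libraries labelled PD-L1 knockdown, each from cells given its own shRNA, to follow what the loss of PD-L1 does to gene expression. Its methods describe stable lentiviral lines selected with puromycin and an empty pLKO.1 vector as their control, but list 1 hairpin sequence. Whether the sequenced control carried that empty vector was not stated. Poly(A) RNA was sequenced by a service company. Wherever 3 values follow each other below, they belong to the control, the library labelled knockdown 1 and the library labelled knockdown 2, in that order.

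Cytokines of this family signal through a shared receptor chain, gp130, which IL6ST encodes. IL6 first binds IL6R, LIF binds LIFR, and oncostatin M signals through OSMR or LIFR, each in a complex with gp130. Janus kinases bound to the receptors phosphorylate STAT3, which pairs, enters the nucleus and switches on genes such as SOCS3, a protein that binds gp130 and shuts the signal down, and PIM1, a kinase that favours survival. In prostate cancer, IL6 is known as a growth and survival signal of cells that no longer depend on androgen. The counts measure RNA only, and phosphorylated STAT3 was not analysed here.

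The libraries held 14733088 to 15786457 counts. A count of 0 allowed up to 0.190 to 0.204 CPM (3 counts, counting error only). CD274, the gene of PD-L1, was not lower where the labels name a knockdown: it had 204, 213 and 224 counts (log2 fold change 0.05 ± 0.20 (SE), adjusted p = 0.943 from edgeR). The series text also names another cell line, BCPAP, the control's count column is headed RBM45, and the medium differs between the labels (DMEM) and the methods (EMEM). Libraries are therefore called by their labels, and every direction below rests on those labels. The study also checked its stable lines by Western blot of PD-L1 protein, which was not analysed here. Of the epithelial markers, 5 of 6 were detected in every library, with a summed level of 688.5 to 789.0 FPKM and KRT5 at 0, and KLK3, KLK2 and TMPRSS2 were at 0 throughout. Leukocyte markers summed to 0.366 to 0.687 FPKM and fibroblast markers to 0.693 to 1.01 FPKM, whereas among the thyroid markers the factors NKX2-1 (1833, 2118 and 2590 counts) and FOXE1 (738, 645 and 720 counts) were well counted, PAX8 had 13, 28 and 29 counts, TG had 3 to 15 and TSHR 2 to 3. The control was not replicated, so the spread came only from the 2 libraries labelled knockdown (1 residual degree of freedom). Since each of these had its own shRNA, differences between shRNAs and between cultures cannot be told apart in that spread. edgeR drew each gene's spread towards a value fitted over all genes, which counted as 46.8 prior degrees of freedom. The SE, p-value and interval of a gene thus rest mostly on the spread of other genes. None of them holds variation between control cultures.

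RNA of every step of the pathway was present, with OSMR as the most abundant of the 9 genes and IL6 as the least. The level of a gene per length was read as FPKM, fragments scaled by gene length and sequencing depth, which allows genes to be compared with each other. OSMR had 98.5 FPKM in the control (95% counting interval 96.6 to 100.4), 87.5 in the library labelled knockdown 1 and 97.6 in the library labelled knockdown 2. STAT3 followed with 49.1, 49.7 and 54.3 FPKM, then IL6ST with 37.1, 32.3 and 25.7 FPKM and LIF with 26.0, 29.0 and 31.7 FPKM. The order of IL6ST and LIF turned round in the library labelled knockdown 2, where the counting intervals of both genes did not overlap. PIM1 (9.59, 9.09 and 9.69 FPKM), IL6R (7.88, 8.40 and 11.6 FPKM), LIFR (7.66, 6.36 and 6.26 FPKM) and SOCS3 (6.80, 7.35 and 10.2 FPKM) lay close together. In the control the counting intervals of IL6R and LIFR overlapped, as did those of LIFR and SOCS3. PIM1, IL6R, SOCS3 and LIFR could not be told apart as neighbours in the library labelled knockdown 1, nor could IL6R, SOCS3 and PIM1 in the library labelled knockdown 2. IL6 was the lowest of the 9 in each library, at 2.08, 1.31 and 2.17 FPKM.

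**Figure D1:**
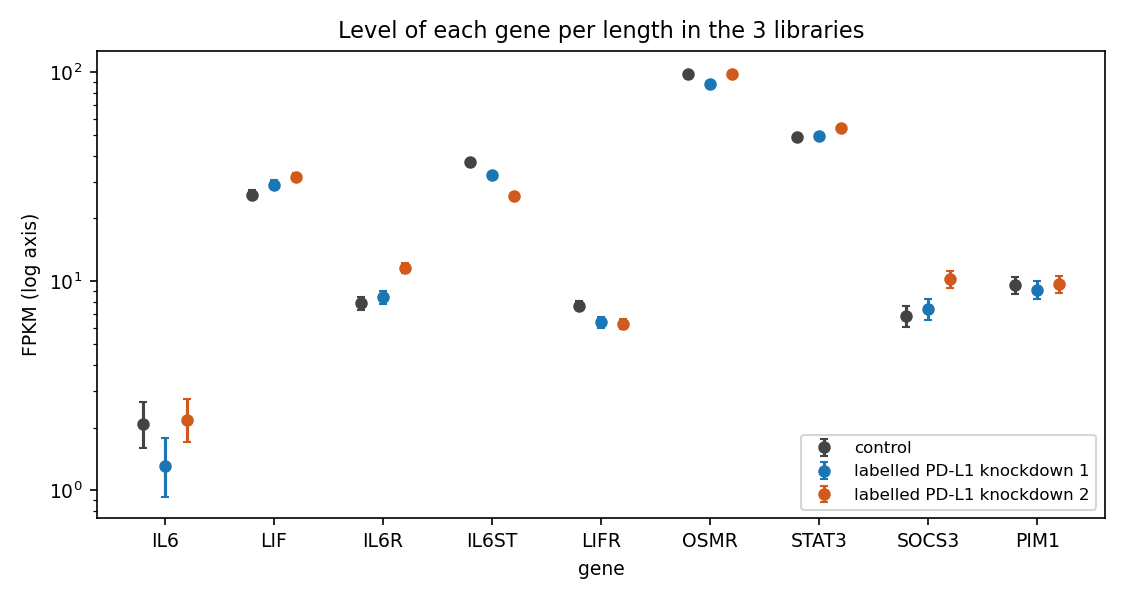
Level of each of the 9 genes in FPKM (log axis) in each library (control grey, labelled knockdown 1 blue, labelled knockdown 2 orange), 1 point a library, with exact 95% Poisson intervals that cover counting error only. OSMR lies at 87.5 to 98.5 FPKM and IL6 at 1.31 to 2.17 FPKM, and IL6ST and LIF exchange their order in the library labelled knockdown 2.

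Within each class the levels were unequal. LIF RNA was 12.5, 22.2 and 14.6 times as abundant per length as IL6 RNA. OSMR RNA was 12.8, 13.7 and 15.6 times as abundant as that of LIFR. The shared chain IL6ST exceeded IL6R by 4.71, 3.84 and 2.21 times, so that the ratio was lowest in the library labelled knockdown 2. Its ratio to LIFR was 4.84, 5.07 and 4.10. FPKM was not corrected for GC content, the share of G and C in a gene's transcripts. This was 37.6% for IL6ST, 55.4% for IL6R and 57.4% for LIF. Shifts between libraries in the ratio of IL6ST to IL6R, or in the order of IL6ST and LIF, were not separated from the GC trend described below.

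None of the 9 genes passed an adjusted p of 0.05 between the libraries labelled knockdown and the control, in edgeR's quasi-likelihood fit, adjusted by the Benjamini-Hochberg method over the 19849 genes tested. Across all genes, 18 passed (0.0907%), so a count of 0 of 9 does not set these genes apart. At an unadjusted p under 0.05 with an absolute log2 fold change above 1, again 0 of 9 were called, against 555 of all genes (2.80%). The unadjusted p alone was under 0.05 for 3 of the 9 genes, IL6R above the control and IL6ST and LIFR below it, against 2255 of all genes (11.4%). The median log2 fold change of the 9 genes was -0.03, beside 0.00 over all genes tested, and single genes ranged from -0.36 to 0.37. With the DESeq2 Wald test 0 of 9 passed the adjusted p, and only IL6ST kept an unadjusted p below the threshold. In bulk RNA, fewer cells expressing a gene and less of its RNA per cell cannot be told apart.

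**Figure D2:**
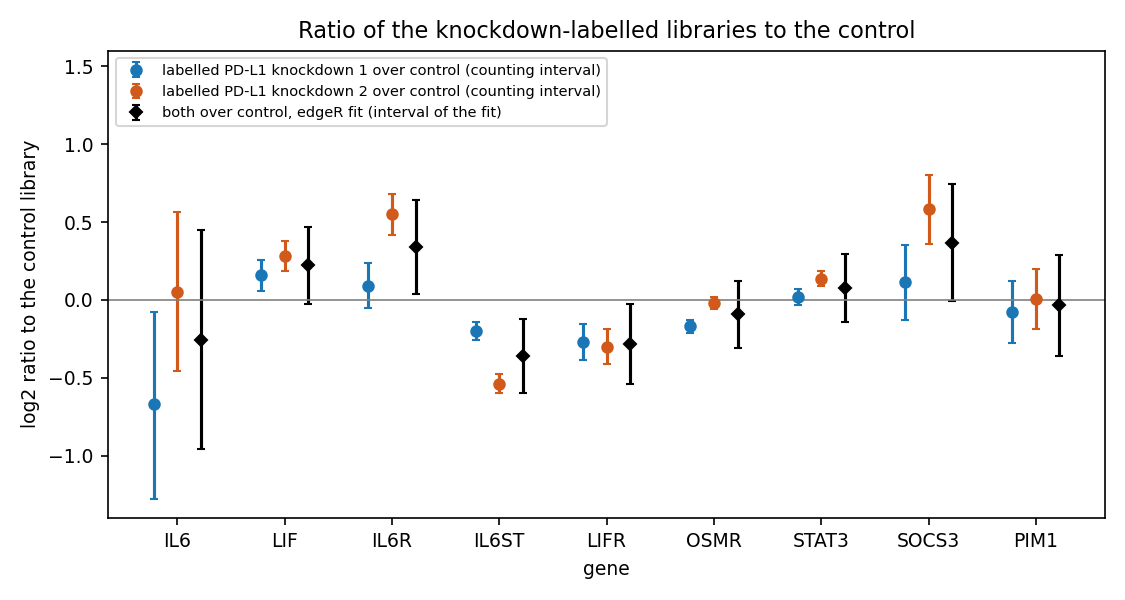
Log2 ratio to the control library for each of the 9 genes: the libraries labelled knockdown 1 (blue) and 2 (orange) with exact 95% counting intervals, and both together by edgeR (black diamonds) with the 95% interval of the fit. IL6ST and LIFR lie below 0 and LIF above 0 in both libraries, and the ratios of IL6 and PIM1 lie on opposite sides of 0.

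The ligands differed in how far their counts could be read. IL6 (chr7:22725884-22732002, GRCh38, plus strand) had 64, 40 and 71 counts. The control thus lay between the libraries labelled knockdown. Its ratio to the control was 0.628 (95% counting interval 0.412 to 0.946) in the library labelled knockdown 1 and 1.04 (0.729 to 1.48) in the library labelled knockdown 2. The log2 fold change was -0.25 ± 0.35 (SE, adjusted p = 0.817 from edgeR), with a 95% interval from -0.96 to 0.45, and it rested on the library labelled knockdown 1, since without that library the log2 ratio was 0.05. STEAP1B, a coding gene that overlaps IL6 on the opposite strand, had 67, 60 and 39 counts, and 17.4% of the 31-base words of IL6 transcripts occur on the opposite strand of another gene. Whether reads were counted by strand was not stated, so the IL6 counts may include reads of its neighbour.

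LIF (chr22:30240447-30246851, minus strand), the ligand of LIFR, had 1530, 1700 and 1990 counts. Both libraries labelled knockdown lay above the control, with ratios of 1.12 (1.04 to 1.20) and 1.21 (1.14 to 1.30). The log2 fold change of 0.22 ± 0.12 (SE) did not pass the test (adjusted p = 0.492 from edgeR). An antisense gene, AC004264.1, overlaps it with 49, 46 and 52 counts.

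Among the receptors, IL6R lay above the control and IL6ST and LIFR below it in both libraries labelled knockdown, with no adjusted p under 0.05. IL6R (chr1:154405193-154469450, plus strand), which binds IL6 itself, had 755, 801 and 1183 counts. The library labelled knockdown 1 lay within counting error of the control (ratio 1.07, 0.964 to 1.18), and the library labelled knockdown 2 lay apart from both others (ratio 1.46, 1.33 to 1.61). In the fit of both, the log2 fold change was 0.34 ± 0.15 (SE, adjusted p = 0.390 from edgeR), and without the library labelled knockdown 2 it was 0.09.

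IL6ST (chr5:55935095-55994993, minus strand), the gene of gp130, had 5118, 4433 and 3771 counts. Both libraries labelled knockdown were below the control, at ratios of 0.870 (0.836 to 0.906) and 0.688 (0.660 to 0.718), and they also differed from each other (ratio of 2 to 1 0.791, 0.757 to 0.826). The log2 fold change of -0.36 ± 0.12 (SE) had the lowest adjusted p of the 9 genes (adjusted p = 0.264 from edgeR). Without the library labelled knockdown 2 it was -0.20. A processed pseudogene within the gene on the other strand, AC016596.1, had 29, 34 and 61 counts. Of the 31-base words of IL6ST transcripts, 5.52% also occur in another gene on the same strand, above all in the pseudogene IL6STP1, which had 0 counts in each library.

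LIFR (chr5:38474963-38608354, minus strand), which pairs with gp130 to bind LIF, had 1350, 1116 and 1174 counts. Its ratios were 0.830 (0.766 to 0.900) and 0.812 (0.750 to 0.879), and the libraries labelled knockdown did not differ from each other beyond counting error (ratio of 2 to 1 0.978, 0.900 to 1.06). Together they gave a log2 fold change of -0.28 ± 0.13 (SE, adjusted p = 0.398 from edgeR). LIFR-AS1, an antisense gene, had 3 to 8 counts.

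OSMR (chr5:38845858-38945596, plus strand), the receptor chain for oncostatin M and a neighbour of LIFR on chromosome 5, had 10488, 9277 and 11066 counts. Only the library labelled knockdown 1 lay below the control beyond counting error (ratio 0.888, 0.864 to 0.914), and the library labelled knockdown 2 had a ratio of 0.985 (0.959 to 1.01). Its log2 fold change was -0.09 ± 0.11 (SE, adjusted p = 0.769 from edgeR), and it turned to 0.04 when trends with GC content and gene length were removed. RICTOR, which overlaps OSMR on the opposite strand, had 1549, 1290 and 1219 counts.

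STAT3 (chr17:42313324-42388568, minus strand) had 6428, 6477 and 7555 counts. The ratio was 1.01 (0.978 to 1.05) in the former and 1.10 (1.06 to 1.14) in the latter. Its log2 fold change was 0.08 ± 0.11 (SE, adjusted p = 0.824 from edgeR), with a 95% interval from -0.14 to 0.30. No gene listed overlaps STAT3, SOCS3 or PIM1.

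Neither target of STAT3 passed the test. SOCS3 (chr17:78356778-78360077, minus strand), the inhibitor that STAT3 induces, had 276, 297 and 442 counts. As for IL6R, the library labelled knockdown 1 was within counting error of the control (ratio 1.08, 0.914 to 1.28) and the library labelled knockdown 2 was above both (ratio 1.50, 1.28 to 1.74). The log2 fold change of 0.37 ± 0.19 (SE) was the highest of the 9 genes but did not pass the test (adjusted p = 0.446 from edgeR). PIM1 (chr6:37170203-37175426, plus strand) had 424, 400 and 456 counts and lay within counting error of the control in both libraries labelled knockdown (ratios 0.948, 0.824 to 1.09, and 1.00, 0.878 to 1.15). Its log2 fold change was -0.03 ± 0.16 (SE, adjusted p = 0.954 from edgeR), with a 95% interval from -0.36 to 0.29.

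The libraries labelled knockdown 1 and 2 differed from each other for most of these genes. The counting interval of their ratio lay beyond 1 for 7 of the 9 genes, that is for all but LIFR and PIM1, against 26.2% of all genes tested. Well counted genes have narrow intervals, so the count was repeated where the mean was 100 counts or more, and it was then 6 of 8 against 37.5%. Against the control, the interval lay beyond 1 for 5 of 9 genes in the library labelled knockdown 1 (29.0% of all genes) and for 6 of 9 in the library labelled knockdown 2 (38.2% of all genes). At a mean of 100 counts or more these were 4 of 8 (40.6% of such genes) and 6 of 8 (56.2%). These intervals hold counting error and no variation between cultures. The ratios of both libraries share 1 control and lay on the same side of 1 for 7 genes, with IL6 and PIM1 as the exceptions. Among those genes, an interval of IL6R, OSMR, STAT3 and SOCS3 in 1 of the libraries included 1. The same share was not counted over all genes, so the agreement does not set these genes apart.

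Across the 9 genes the difference from the control followed base composition. The genes whose transcripts are poor in G and C lay below the control and those rich in them above it, PIM1 excepted. IL6ST (37.6% GC) and LIFR (39.3% GC) had the lowest fold changes and SOCS3 (61.9% GC) the highest. The coding sequences below illustrate this contrast, with G and C in capitals. Each is the 60 bases nearest to its gene's GC content in a transcript of GENCODE 29, so its share of capitals follows from that choice. The capitals make up 38.3% of the IL6ST stretch (coding bases 67 to 126) and 40.0% of the LIFR stretch (10 to 69), and 55.0% of the IL6R stretch (409 to 468) and 61.7% of the SOCS3 stretch (46 to 105).
IL6ST: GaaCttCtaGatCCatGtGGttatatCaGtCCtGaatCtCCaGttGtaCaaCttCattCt
LIFR: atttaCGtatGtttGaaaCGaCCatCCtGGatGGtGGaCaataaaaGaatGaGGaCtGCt
IL6R: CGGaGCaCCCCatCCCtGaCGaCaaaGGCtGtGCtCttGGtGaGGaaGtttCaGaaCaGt
SOCS3: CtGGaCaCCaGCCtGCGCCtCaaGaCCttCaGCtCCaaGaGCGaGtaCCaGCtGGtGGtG

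Over the 9 genes, the correlation of GC content with the log2 fold change was r = 0.911 (Spearman's rho = 0.90), a description across genes that share the same libraries. The same trend ran through the whole table. Over the 10859 genes of known GC content and a mean of 100 counts or more, r was 0.638, and the median log2 fold change went from -0.20 at 35 to 40% GC to 0.23 at 60 to 65% GC. It was present in the ratio of each library labelled knockdown to the control (r = 0.486 and 0.665 over the same genes, 0.659 and 0.892 over the 9 genes). Both ratios share that 1 control, so these values are not independent of each other. When the trends with GC content and gene length were removed, the log2 fold change was -0.11 for IL6ST, -0.08 for LIFR, 0.23 for IL6R and 0.16 for SOCS3 (adjusted p of 0.801 to 0.913 from edgeR), and no gene of the 9 kept an unadjusted p under 0.05. PIM1 (55.8% GC) then had a log2 fold change of -0.16 and IL6 (45.8% GC) of -0.22, LIF of 0.09 and STAT3 of 0.10. Over the 9 genes, the correlation of GC content with these log2 fold changes was r = 0.575. Base composition thus moved with the result and was addressed only by this removal, after which the correlation over the 9 genes was still positive.

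**Figure D3:**
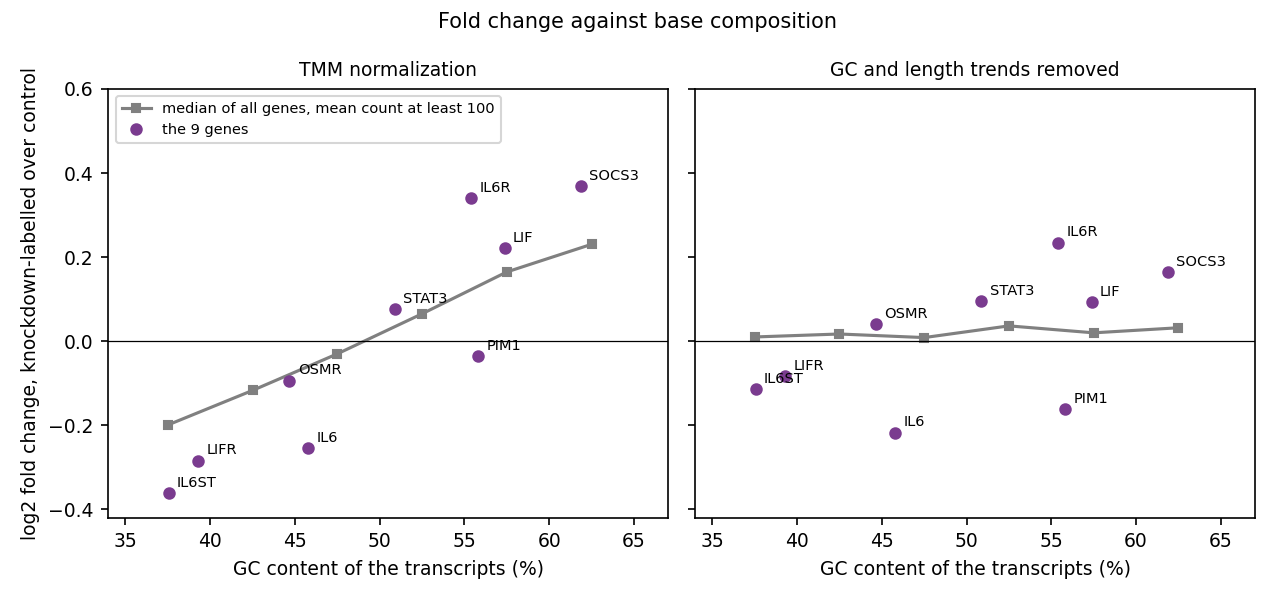
Log2 fold change of both libraries labelled knockdown over the control, by the GC content of each gene's transcripts in percent, with TMM normalization (left) and with GC and length trends removed (right). The median of all genes averaging 100 counts or more (grey) runs from -0.20 to 0.23 on the left and stays between 0.01 and 0.04 on the right. Of the 9 genes (purple), IL6ST, LIFR, IL6 and PIM1 lie below it in both.

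A STAT motif was looked for in the promoters, since STAT3 regulates genes of its own pathway. The letters TTCNNNGAA, which read the same on both strands, were searched from 250 bases before to 50 bases after each start in the RefSeq promoters of GRCh38.p14, where 8 of the 9 genes had 11 promoters. LIF had no entry. The motif occurred in 2 promoters, both of LIFR, and in 2689 of all 35116 promoters (7.66%). The windows around it are printed with the motif in capitals, 165 bases before the start of the former promoter (chr5:38595553-38595579, minus strand) and 182 bases before that of the latter (chr5:38557632-38557658, minus strand).
LIFR, upstream start: cattactagTTCCTTGAAccacaatcc
LIFR, downstream start: ctttggagtTTCATCGAAaggtcttta
The stricter TTCCNGGAA, each match of which is also a match of the motif above, was in 0 of the 11 promoters and in 1.15% of all. A match is a run of letters and not a bound site.

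The wider pathway was described with 62 genes in 9 lists. Of these 50 were tested, 0 passed the adjusted p or the threshold with the fold change, and the unadjusted p was under 0.05 for 3 genes above and 3 below the control, 6 of 50 against 11.4% of all genes, which is near the background. The median log2 fold change was 0.07, beside 0.00 over all genes, and 0.01 beside 0.01 with the GC and length trends removed.

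CLCF1 and IL11 were the most counted of the family's other ligands. Of 9 listed, 5 were tested and none passed. CLCF1, a ligand that acts through the CNTF receptor complex, had 649, 644 and 699 counts and IL11, which signals through IL11RA and gp130, had 415, 466 and 474. CNTF had 39, 23 and 33 counts. Oncostatin M, the ligand of the abundant OSMR, was near the limit of detection in the cells themselves, since OSM had 0, 0 and 3 counts. IL27 and IL31 had 0 counts in each library. Of the further receptors, 3 of 4 were tested and none passed. IL27RA had 1065, 1269 and 1316 counts, IL31RA, which pairs with OSMR to bind IL31, had 477, 401 and 518, and IL11RA had 127, 144 and 181, whereas CNTFR had 3, 0 and 0.

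The proteases that release receptors from the cell surface, among them IL6R, included a gene that 1 library set apart. ADAM10 had 2992, 2753 and 1509 counts, with the library labelled knockdown 2 far below both others. Its log2 fold change was -0.52 ± 0.16 (SE, adjusted p = 0.244 from edgeR). It rested on the library labelled knockdown 2, without which it was -0.11, and it passed the adjusted p in 3 of 7 other fits (adjusted p from 0.0069 to 1.00 over them). With the GC and length trends removed, ADAM10 had a log2 fold change of -0.32 (adjusted p = 0.801 from edgeR). ADAM17, the other sheddase, had 1637, 1527 and 1616 counts (log2 fold change -0.11).

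The kinases, other STAT factors and adaptors of gp130, 13 genes in all, were each tested, and none passed the adjusted p. JAK1 had 1911, 1917 and 2031 counts (log2 fold change 0.00), TYK2 1874, 2034 and 2432 (0.20) and JAK2 242, 184 and 217 (-0.32). STAT6, the factor of interleukin 4 signalling, had 1757, 1867 and 2318 counts (0.20) and STAT5B had 1204, 1193 and 1210 (-0.05). Among the adaptors, PTPN11, the phosphatase SHP2 that gp130 recruits, had 6650, 6302 and 6193 counts (-0.13) and GRB2 had 2716, 2874 and 3186 (0.11). GAB1, a docking protein that links gp130 to the MAP kinase and PI3 kinase routes, had 336, 216 and 230 counts, with both libraries labelled knockdown below the control. Its log2 fold change of -0.64 ± 0.18 (SE) did not pass (adjusted p = 0.184 from edgeR), and it was -0.47 (adjusted p = 0.715 from edgeR) with the GC and length trends removed.

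Inhibitors of the pathway other than SOCS3 had a median log2 fold change of 0.15 over 7 tested of 8 listed, and none passed. The phosphatase genes PTPN1 (2918, 3111 and 2946 counts) and PTPN2 (1089, 1177 and 1085 counts) both had a log2 fold change of 0.01, and PIAS3, an inhibitor of STAT3 binding to DNA, had 787, 902 and 939 counts (0.18).

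Genes known as targets of STAT3 in growth and survival were all tested, 17 of 17. None passed the adjusted p, and 13 had a fitted value above 0 and 4 below it, beside 9957 of 19849 above 0 among all genes tested. The unadjusted p was under 0.05 for 3 genes above and 1 below the control, against 11.4% of all genes. The median log2 fold change of the list was 0.16, or 0.01 with the GC and length trends removed. JUNB, a subunit of the AP-1 factor, had 388, 544 and 684 counts, both libraries labelled knockdown above the control. Its log2 fold change was 0.61 ± 0.16 (SE, adjusted p = 0.122 from edgeR), and 0.34 (adjusted p = 0.718 from edgeR) with the trends removed. BCL2L1, which encodes the survival protein BCL-XL, had 1923, 2273 and 2568 counts (log2 fold change 0.28, adjusted p = 0.377 from edgeR, and 0.13 with the trends removed). SBNO2, a gene induced by STAT3 in myeloid cells, had 3128, 3370 and 4396 counts (0.26, adjusted p = 0.401 from edgeR), and its value was 0.11 without the library labelled knockdown 2 and 0.04 with the trends removed. HIF1A, the hypoxia factor, had 9565, 8223 and 8465 counts (-0.24, adjusted p = 0.387 from edgeR, and -0.06 with the trends removed). MCL1, another survival gene, was the most abundant of the list at 168.6, 148.2 and 171.4 FPKM (log2 fold change -0.08), and CCND1, the gene of cyclin D1, had 99.4, 95.6 and 94.6 FPKM (-0.07).

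The acute-phase genes that IL6 drives in liver were nearly absent. Of 9 listed, 3 were tested and none passed, and CRP and SERPINA3 had 0 counts in each library. LCN2 had 29, 32 and 36 counts, FGB 14, 12 and 7, and SAA1 1, 3 and 2.

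**Figure D4:**
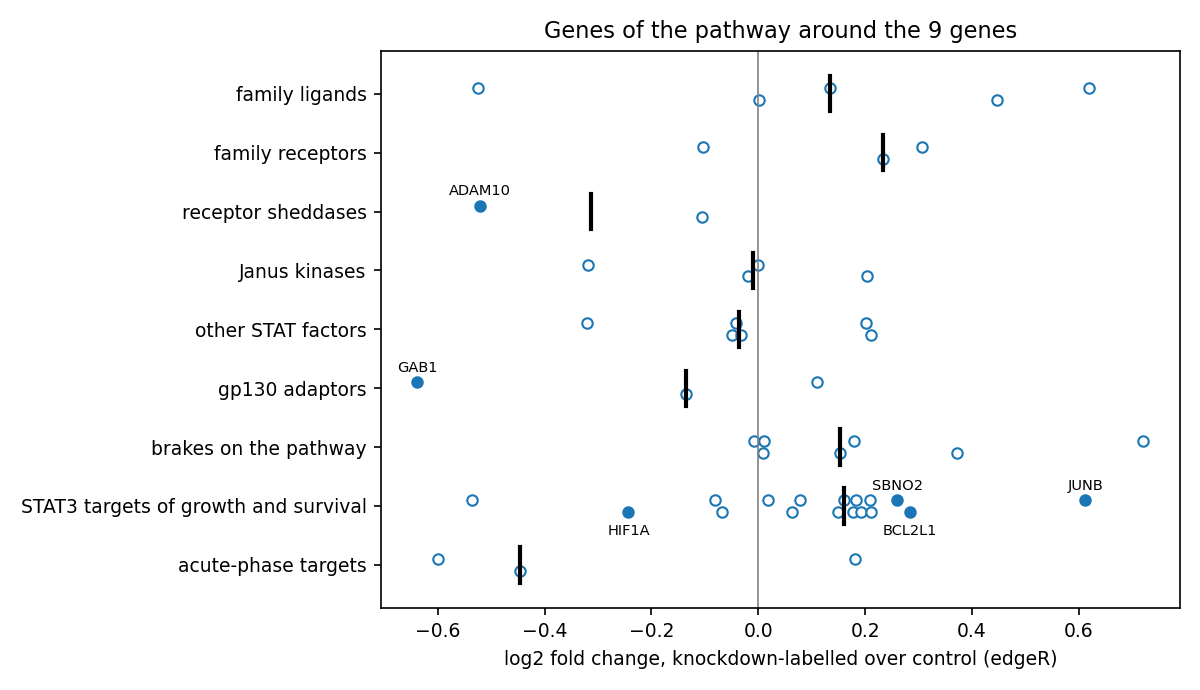
Log2 fold change by edgeR of the 50 tested genes in the 9 pathway lists, 1 point a gene, with filled points and names for an unadjusted p under 0.05 and a black bar at each list's median. The named genes run from GAB1 at -0.64 to JUNB at 0.61, and 0 of the 50 passed an adjusted p of 0.05.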

How the data were processed

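The authors deposited, for each library, read counts per gene without normalization, and FPKM values. A check of the files found that the FPKM are those same counts over gene length, times 1 factor per library. The submitters' processing notes name Bowtie2 2.0.6, TopHat2 2.0.9, Cufflinks 2.1.1 and Cuffdiff 2.1.1. The counting tool, its use of strand and the build are not given in the sources used here, but all 58735 listed positions match GENCODE 29 on GRCh38.

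After a filter at 10 counts in total, 19849 genes entered edgeR 4.0.16 under R 4.3.3 (TMM, glmQLFit, glmQLFTest), both libraries labelled knockdown against the control, and p-values were adjusted by the Benjamini-Hochberg method over all of them. Alternatives were DESeq2 1.42.0, other scalings, minimums of 1 and 100 counts, the legacy quasi-likelihood fit, removal of GC and length trends (20 classes of each), and each library labelled knockdown left out. Ratios of libraries carry exact Clopper-Pearson intervals after TMM scaling and FPKM carry exact Poisson intervals (95%, counting error only, since PCR copies were not marked by molecular identifiers). The members and lists were chosen with earlier results of these data known. Named were all 9 members, CD274, overlapping genes, and from each pathway list the genes with an unadjusted p under 0.05 and the 3 of highest mean FPKM. Where all counts of a few further list genes were at or near 0, they were named after their values were seen. Values of some listed genes are not reported here.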

Additional observations from a re-analysis of the deposited data

How the results depend on the processing

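No paired analysis was possible because the control is 1 library and its label carries no replicate number. In 7 other fits of each of the 9 genes (63 in all) none was called, with adjusted p from 0.116 to 1.00. With the log2 ratios from leaving out a library labelled knockdown added, 78 of 81 values kept their direction. Those ratios carry no p and so have no side of a threshold. At an unadjusted p of 0.05, IL6R, IL6ST, LIFR and SOCS3 each changed side in at least 1 of the other fits. OSMR turned to 0.040 with the GC and length trends removed. Leaving out each library labelled knockdown in turn gave log2 ratios without a test, from -0.67 to 0.051 for IL6 and from -0.078 to 0.0064 for PIM1, and for these genes the value above 0 is that without the library labelled knockdown 1. The number of all genes under an adjusted p of 0.05 was 18, and it was 6 with DESeq2, 49 with DESeq2 size factors, 47 with library totals, 68 with a minimum of 100 counts, 70 with the legacy fit and 6 with the trends removed. With a minimum of 1 count it was 0 by edgeR, where 1496 genes had an unadjusted p under 0.05. The 555 genes past the unadjusted p and the fold change became 46 with DESeq2 and 54 with a minimum of 100 counts. ADAM10 passed the adjusted p with library totals (0.0465), a minimum of 100 counts (0.0377) and the legacy fit (0.0069), and JUNB with a minimum of 100 counts (0.0451). FPKM and counts per kilobase after TMM differ only by 1 factor per library. The order of the genes was therefore bound to be the same with both, which is no check of it. At 40 to 71 counts, IL6 is limited by depth. The cause of these shifts was not tested.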

Other observations

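Of the genes that overlap the members, RICTOR had the most counts. AC073072.1, antisense to IL6, had 7, 18 and 19 counts (control, labelled knockdown 1, labelled knockdown 2; log2 fold change 1.34, adjusted p = 0.486 from edgeR), LIF-AS1 had 4, 3 and 2 counts, and IL6R-AS1 had 3, 3 and 4. RICTOR, which encodes a subunit of the mTORC2 kinase complex, had a log2 fold change of -0.35 (adjusted p = 0.305 from edgeR), and STEAP1B of -0.48 (adjusted p = 0.615 from edgeR). Their reads could not be told apart from those of OSMR and IL6 where the transcripts overlap, if the counting did not use strand.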
